A study of Homo sapiens with 6 samples.

Results

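Telomerase accessory and DNA end repair genes were followed in SH-SY5Y cells, an established human neuroblastoma line, in which the telomere protein TRF2 had been inhibited. The 9 genes were chosen by name, for proteins that act at uncapped telomere ends or in the telomerase particle, and were found on the array through its annotation. Of these, 6 had at least 1 spot (XRCC5, XRCC6, ERCC1, DKC1, NHP2 and NOP10), with 11 spots among the 9169 tested. PARP1, NBN and RAD50 carried no spot under their names and were not analysed here.

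The study compared 3 DN-TRF2 samples with 3 GFP control samples. DN-TRF2 cells were transfected with the plasmid pIRES2-EGFP carrying a dominant-negative form of TRF2, and GFP control cells with pEGF-C2 without an insert, so the insert and the plasmid backbone cannot be told apart. Both groups were transfected populations kept in geneticin at 500 µg/ml, and total RNA was taken on day 7 in 3 independent experiments. Radioactive cDNA made from about 5 µg of RNA of each sample was hybridized to 1 array of 9600 cDNA spots. TERF2, which encodes TRF2, had no spot under its name, so the labels could not be checked against the targeted gene.

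TRF2 belongs to shelterin, the protein cover that keeps a chromosome end from being treated as a broken one. When the cover is lost, the Ku heterodimer (XRCC5 and XRCC6) can start end joining and the ERCC1-XPF nuclease can trim the single-stranded overhang. Dyskerin (DKC1), NHP2, NOP10 and GAR1 are the core proteins of H/ACA particles, which modify ribosomal RNA and, bound to the telomerase RNA, form part of telomerase. The comparison asks whether transcripts of these genes differed on day 7 after transfection with the dominant-negative protein.

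At none of the 11 spots did the difference between DN-TRF2 and GFP control cells pass the test. Fold changes ran from 0.889 at a spot of XRCC6 to 1.21 at the spot of XRCC5, and the groups overlapped at 9 of the 11 spots. Over all spots the 3 DN-TRF2 arrays lay below the 3 GFP control arrays at 4.43% and above them at 4.28%. At 5 spots the DN-TRF2 mean was higher and at 6 it was lower, against a lower mean at 52.7% of all spots. Under the alternatives the count of lower spots ran from 4 (array weights) to 8 (median and MAD scaling). The median difference was -0.017 on the log2 scale, against -0.011 over all spots. Limma's moderated test called 0 of the 11 at an adjusted p under 0.05 (adjusted p from 0.999 to 1.00), as it called 0 (0%) of all 9169 spots. At an unadjusted p under 0.05 it was 0 of the 11, with a smallest p of 0.237, against 3.41% of all spots. With the replicate number as a block the count over all spots moved to 527, against 313 without it, and that for the 11 spots stayed at 0.

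The 95% intervals show, spot by spot and for the main fit only, how large a missed difference could have been. They are not a joint bound over the 11 spots. Over the 11 spots their ends lay between -0.61 and 0.76 on the log2 scale, that is between 0.655-fold and 1.69-fold. These values are on a scale of log2(intensity + 50) after quantile normalization, where the added 50 understates changes at dim spots. The errors come from 3 arrays per group, whose number limits the precision. A p that misses the threshold does not show that the levels were equal. In RNA from whole cultures, fewer cells with a transcript and less of it per cell cannot be told apart.

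**Figure D1:**
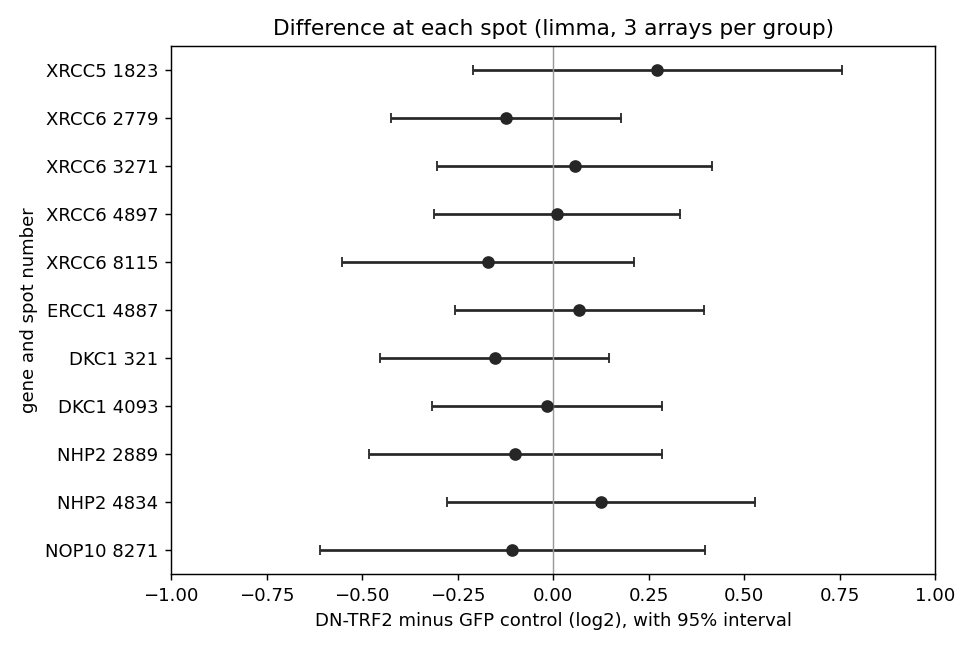
Difference between DN-TRF2 and GFP control cells at each of the 11 spots, as DN-TRF2 minus GFP control on the log2 scale (x axis), with 1 row per gene and spot number (y axis). Points are limma estimates from 3 arrays per group and bars are 95% intervals. Every interval spans 0, and the widest reach -0.61 (NOP10) and 0.76 (XRCC5); the sign of spots XRCC6 3271, DKC1 4093, NHP2 4834 and ERCC1 4887 turned under at least 1 other scaling.

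XRCC5 encodes the larger Ku subunit, Ku80, which with Ku70 forms the ring that slides onto a DNA end. Its single spot, 1823, read 10.34, 10.50 and 10.64 (normalized log2 signal) on the DN-TRF2 arrays of replicates 1, 2 and 3, against 10.34, 9.74 and 10.59 on the GFP control arrays. Of these 6 values 5 lie close together, and GFP control replicate 2 lies well below them. The mean difference was 0.27 ± 0.22 (SE, 95% interval -0.21 to 0.76, limma adjusted p = 0.999), the largest in size of the 11 spots. Taken by replicate number, the DN-TRF2 array differed from its GFP control by -0.0015, 0.76 and 0.057. Without GFP control replicate 2 the difference came to 0.028, and without GFP control replicate 3 to 0.46, with no call in either case.

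XRCC6 encodes Ku70, the partner subunit, and was spotted 4 times. The brightest of its spots, 3271, read 10.81, 11.10 and 11.24 on the DN-TRF2 arrays, against 10.88, 11.13 and 10.96 on the GFP control arrays. These groups interleave, and the difference of 0.056 ± 0.16 (SE) turned to -0.041 with median and MAD scaling and to -0.027 with median centring. Spot 8115 had the lowest value of the DN-TRF2 group on replicate 1, with 9.36, 9.76 and 9.91 in DN-TRF2 and 9.85, 9.76 and 9.94 in GFP control cells. Its difference of -0.17 ± 0.17 (SE, 95% interval -0.55 to 0.21) came to -0.012 without DN-TRF2 replicate 1.

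The dimmer XRCC6 spots gave small differences as well. Spot 2779 read 8.33, 8.42 and 8.49 on the DN-TRF2 arrays, against 8.56, 8.56 and 8.49 on the GFP control arrays, a difference of -0.12 ± 0.13 (SE). All DN-TRF2 values lay below all GFP control values here, but the replicate 3 arrays differed by only -0.0035. Spot 4897 read 8.84, 8.91 and 8.75 in DN-TRF2, against 8.83, 8.67 and 8.96 in GFP control cells, with a difference of 0.010 ± 0.14 (SE). With the 4 spots averaged per array, XRCC6 stood at 9.49 in DN-TRF2 and 9.55 in GFP control cells, a difference of -0.057 ± 0.13 (SE, 95% interval -0.34 to 0.23). The gene table used lists 5 pseudogenes named after XRCC6, whose transcripts, if present, could bind the same spots.

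ERCC1 is the non-catalytic partner of the XPF nuclease, which cuts DNA beside single-stranded stretches in nucleotide excision repair and at unprotected telomeres. Its spot, 4887, was the brightest of the 11, at percentile 99.0 of mean signal over all spots. It read 13.07, 13.33 and 13.17 on the DN-TRF2 arrays, against 13.08, 13.02 and 13.26 on the GFP control arrays, so that the groups overlap almost fully. The difference was 0.069 ± 0.15 (SE, 95% interval -0.26 to 0.39, limma adjusted p = 0.999), and turned to -0.025 with median and MAD scaling. It was 0.00026 without DN-TRF2 replicate 2 and 0.13 without GFP control replicate 3. By replicate number the DN-TRF2 array was lower in 2 of 3 pairs and higher by 0.30 in the pair of replicate 2. ERCC4, the gene of XPF, had no spot under its name and was not analysed here.

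**Figure D2:**
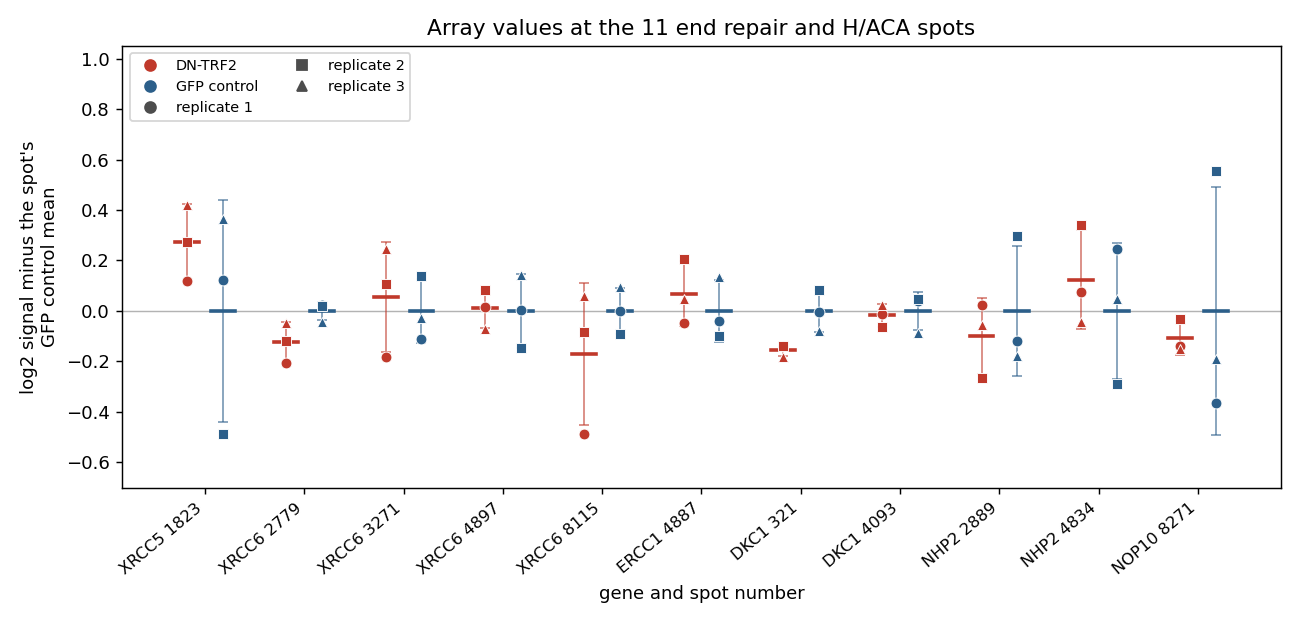
Values on each array at the 11 spots, as normalized log2 signal minus the GFP control mean of the same spot (y axis), by gene and spot number (x axis). Points are arrays, with DN-TRF2 in red left of GFP control in blue and the marker giving the replicate number; thick bars are group means and thin bars the SD of 3 arrays. GFP control replicate 2 stands farthest from its group mean at 7 of the 11 spots, lowest for XRCC5 and highest for NOP10.

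DKC1 encodes dyskerin, the pseudouridine synthase of H/ACA particles, whose inherited mutations shorten telomeres in dyskeratosis congenita. Spot 321 read 8.16, 8.16 and 8.11 on the DN-TRF2 arrays, against 8.29, 8.38 and 8.22 on the GFP control arrays. The groups did not overlap, so that the DN-TRF2 array was the lower one in 3 of 3 pairs, with differences from -0.22 to -0.10. The difference of -0.15 ± 0.13 (SE, 95% interval -0.45 to 0.15) did not pass limma's test (adjusted p = 0.999), and it ran from -0.19 to -0.11 with 1 array left out. At spot 4093, the dimmest of the 11, the values were 7.35, 7.30 and 7.39 in DN-TRF2 and 7.40, 7.41 and 7.27 in GFP control cells. That difference, -0.017 ± 0.13 (SE), turned to 0.029 with median and MAD scaling and to 0.019 with median centring. Averaged over both spots DKC1 stood at 7.74 in DN-TRF2 and 7.83 in GFP control cells, a difference of -0.085 ± 0.12 (SE, 95% interval -0.35 to 0.18).

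DKC1 spot 321 and XRCC6 spot 2779 were the only 2 of the 11 at which all 3 DN-TRF2 arrays lay below all 3 GFP control arrays. Such a separation was found at 4.43% of all spots, and the opposite one, with DN-TRF2 above, at 4.28% of all spots and at 0 of the 11. Both separated differences were small, at -0.15 and -0.12, and both spots had a small spread in each group, with SDs of 0.026 and 0.079 in DN-TRF2 and 0.083 and 0.037 in GFP control cells. Other spots of the same 2 genes showed no such separation. A spot with such a separation is lower in every pair by replicate number, so the pairs add nothing for these 2 spots. With them counted, 2 of the 11 spots were lower in all 3 pairs, against 14.7% of all spots, a share that also includes separated spots. Higher in all 3 pairs were 0 of the 11.

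NHP2 is a small RNA-binding protein of the H/ACA core, and its 2 spots went opposite ways. Spot 2889 read 8.84, 8.55 and 8.76 on the DN-TRF2 arrays, against 8.69, 9.11 and 8.64 on the GFP control arrays, with a difference of -0.099 ± 0.17 (SE). Spot 4834, which was far brighter, read 12.04, 12.30 and 11.92 in DN-TRF2 and 12.21, 11.67 and 12.01 in GFP control cells, with a difference of 0.12 ± 0.18 (SE) that turned to -0.0091 with median and MAD scaling. At both spots GFP control replicate 2 stood apart from the other controls, above them at the dimmer spot and below them at the brighter one. In the pair of replicate 2 the DN-TRF2 array differed from its GFP control by -0.56 at spot 2889 and by 0.63 at spot 4834, while the other pairs gave 0.14 and 0.12 at the first and -0.17 and -0.091 at the second. Each spot's sign turned when GFP control replicate 2 was left out, to 0.048 and -0.022. Averaged over both spots, NHP2 stood at 10.40 in DN-TRF2 and 10.39 in GFP control cells, a difference of 0.012 ± 0.12 (SE, 95% interval -0.25 to 0.28). The opposite deviations of GFP control replicate 2 partly cancel in this average, so its smaller SE does not show better precision. Of named pseudogenes of NHP2 the gene table lists 2.

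NOP10 is the smallest H/ACA core protein and binds directly to dyskerin. Its spot, 8271, read 8.25, 8.36 and 8.24 on the DN-TRF2 arrays, against 8.02, 8.94 and 8.20 on the GFP control arrays. The DN-TRF2 values lie close together, whereas GFP control replicate 2 is far above all other arrays. The mean difference of -0.11 ± 0.23 (SE, 95% interval -0.61 to 0.40, limma adjusted p = 0.999) rests on that array: without GFP control replicate 2 it was 0.17. The SD over arrays was 0.066 in DN-TRF2 and 0.49 in GFP control cells, the widest control spread among the 11 spots.

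GFP control replicate 2 lay farthest from its own group's mean at 7 of the 11 spots, GFP control replicate 3 at 4 and replicate 1 at 0. Over all spots it also deviated most, with an SD of 0.30 around the group mean, against 0.25 and 0.21 for GFP control replicates 1 and 3 and 0.12 to 0.15 for the DN-TRF2 arrays. The SD was larger in GFP control than in DN-TRF2 cells at 7 of the 11 spots and at 78.0% of all spots. Over all alternatives run, those that left out 1 array included, the smallest adjusted p among the 11 spots was 0.709.

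**Figure D3:**
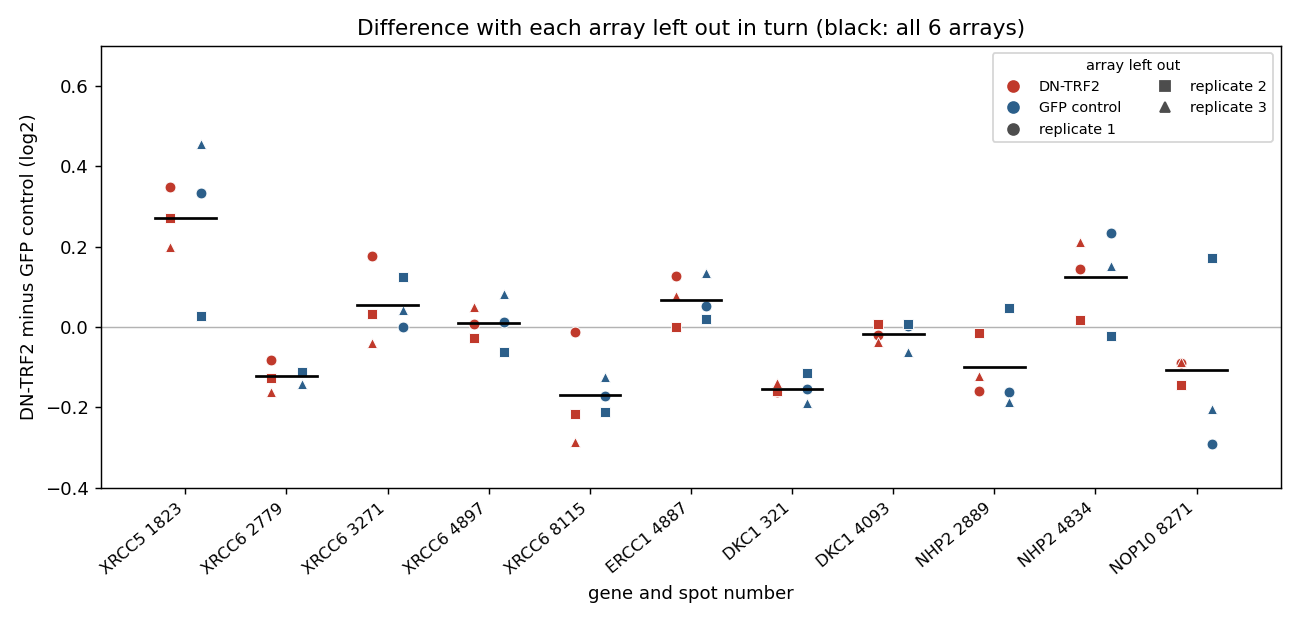
Difference at each of the 11 spots, as DN-TRF2 minus GFP control on the log2 scale (y axis), by gene and spot number (x axis), when 1 array is left out. Each point is the difference without the array given by colour (DN-TRF2 red, GFP control blue) and marker (replicate), and the black line is the difference from all 6 arrays. Leaving out GFP control replicate 2 takes XRCC5 to 0.028 and turns NOP10 to 0.17, while DKC1 321 stays between -0.19 and -0.11.

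Signal at these spots was above the stand-in for empty spots on every array, with deposited intensities from 96.8 (DKC1 4093, GFP control replicate 2) to 10614 (ERCC1, DN-TRF2 replicate 2). Before normalization the replicate 3 array gave the highest intensity of its group at 9 of 11 spots in DN-TRF2 and at 8 of 11 in GFP control cells. After normalization it did so at 5 spots in DN-TRF2 and at 4 in GFP control cells. XRCC5, for example, had deposited intensities of 1120, 1384 and 1754 in DN-TRF2, against 1040, 765 and 1790 in GFP control cells. DKC1 spot 321 had 213, 239 and 273 in DN-TRF2, against 220, 245 and 310 in GFP control cells. It was lower in each pair on this scale too, but the groups overlapped. XRCC6 spot 2779 had 244, 299 and 367 in DN-TRF2, against 274, 286 and 386 in GFP control cells. Its groups overlapped as well, and the DN-TRF2 array was the higher one in the pair of replicate 2. Mean signals of spots of 1 gene differed widely, from 8.47 to 11.02 for XRCC6 and from 8.77 to 12.03 for NHP2. The groups were therefore compared within a spot, or over the same spots of a gene averaged on each array. Ranks of signal between spots are a description.

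**Figure D4:**
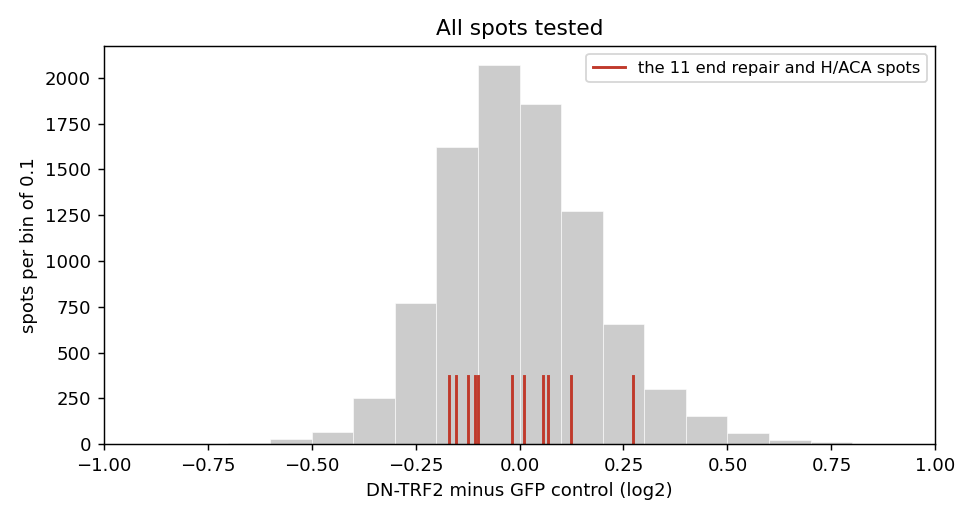
Number of spots (y axis) by difference between DN-TRF2 and GFP control cells (x axis, log2, bins of 0.1) over all 9169 spots, 1 of which lies outside the axis. Red lines mark the 11 end repair and H/ACA spots. All 11 lie between the 5th and 95th percentiles of all spots, -0.28 and 0.32.

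Arrays had median intensities of 517 to 681 in DN-TRF2 and 480 to 712 in GFP control cells, and correlated across spots at 0.987 to 0.992 among DN-TRF2 arrays and at 0.954 to 0.980 among GFP control arrays. Of 14 markers of sympathetic neuroblastoma cells 8 had a spot, among them DBH, CHGA and GATA3, and 13 of their 16 spots lay above the median signal. Of 8 fibroblast and 9 blood cell markers, 2 and 4 had a spot, of which 1 and 2 spots lay above the median. In DN-TRF2 cells 12 of the 16 neuroblastoma spots had the higher mean. So did 2 of 2 fibroblast spots (DCN and LUM) and 2 of 4 blood cell spots. Over all spots the DN-TRF2 mean was lower at 52.7%. Median differences were 0.058, 0.32 and 0.014, and limma's adjusted p called 0 of these spots. At an unadjusted p under 0.05 limma gave 2 neuroblastoma spots higher, against 2.31% of all spots: GATA3 at 0.45 and GAP43 at 0.46. It gave 1 lower, against 1.1%: CHGA at -0.53, and none among the other markers. The other spots of GATA3 differed by 0.10 and 0.064, those of CHGA by 0.036 and 0.060.

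Wider repair and telomere gene lists, chosen with earlier results of these data known, were read in the same fit, and limma's adjusted p called 0 spots in each. End joining genes had 13 spots of 8 genes, with 8 higher and 5 lower in DN-TRF2 and a median difference of 0.041. XRCC4, the scaffold of the ligation step, was at 9.08 in DN-TRF2 and 8.66 in GFP control cells at one spot, a difference of 0.41 ± 0.15 (SE), and differed by -0.11 ± 0.14 at its other spot. TDP1, which frees DNA ends from trapped proteins, differed by 0.23 ± 0.17 and 0.21 ± 0.16 at its 2 spots. PRKDC and LIG4, the kinase and ligase of the pathway, had no spot under their names and were not analysed here.

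Genes of end resection and homologous recombination, the group of NBN and RAD50, had 15 spots of 10 genes, with 8 higher and 7 lower and a median of 0.011. MRE11, the nuclease of the complex with RAD50 and NBN and its one subunit with a spot, stood at 9.80 in DN-TRF2 and 9.83 in GFP control cells, a difference of -0.029 ± 0.20 (SE); it was picked for its role and after its value was seen. RPA3, a subunit of the single-strand binding complex, differed by -0.32 ± 0.16 and 0.011 ± 0.25 at its 2 spots.

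Single-strand break and base excision repair genes, to which PARP1 belongs, had 17 spots of 13 genes with a median of 0.044, 10 of them higher. NEIL1, a glycosylase for oxidized bases, stood at 10.69 in DN-TRF2 and 10.03 in GFP control cells, a difference of 0.65 ± 0.21 (SE, limma adjusted p = 0.999). All its DN-TRF2 arrays lay above all GFP control arrays, as at 4.28% of all spots, but the gene was named for its small p. NTHL1, a glycosylase of related function, differed by 0.31 ± 0.15 at one spot and by 0.087 ± 0.20 at its other. Nucleotide excision repair genes, ERCC1 among them, had 23 spots of 15 genes with a median of 0.049, 16 of them higher. RAD23B, which stabilizes the lesion sensor XPC, stood at 10.35 in DN-TRF2 and 9.75 in GFP control cells at one spot, a difference of 0.60 ± 0.18 (SE, limma adjusted p = 0.999), and differed by 0.13 ± 0.19 at its other spot. DDB1, part of the ultraviolet damage sensor, differed by 0.30 ± 0.17.

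Mismatch repair genes had 2 spots, of which PMS1 differed by -0.089 ± 0.17 (SE) and MSH6 by -0.0076 ± 0.13. Damage signalling genes had 19 spots of 13 genes with a median of -0.058, 6 of them higher. RFC5 and RFC2, subunits of the clamp loader, differed by -0.37 ± 0.16 and 0.37 ± 0.20, and the other spot of RFC5 by -0.023 ± 0.17. H2AX, the histone variant marked at breaks, had the largest difference in size of this list, -0.54 ± 0.30 at one spot, and differed by -0.19 ± 0.19 and 0.17 ± 0.15 at the others; it was named after its values were seen.

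The telomerase and H/ACA list, of which DKC1, NHP2 and NOP10 are part, had 16 spots of 10 genes, with 5 higher and 11 lower and a median of -0.032. WRAP53, which carries telomerase to Cajal bodies, read 8.59, 8.47 and 8.14 on the DN-TRF2 arrays, against 8.91, 8.89 and 8.73 on the GFP control arrays. The groups did not overlap, with DN-TRF2 below as at 4.43% of all spots, but the gene was named for its small p. The WRAP53 difference was -0.44 ± 0.16 (SE, limma adjusted p = 0.999), the largest in size on this list. RUVBL2, an ATPase that helps to assemble H/ACA particles, differed by 0.39 ± 0.24 and -0.00045 ± 0.15 at its 2 spots. GAR1, the fourth core protein, differed by -0.0050 ± 0.18, and NAF1, which holds its place during assembly, by -0.15 ± 0.20; both were picked for their role and after their values were seen. TERT, the catalytic subunit of telomerase, had no spot under its name and was not analysed here. The box C/D particle, the sister class of H/ACA particles, had 4 spots with a median of -0.024, among them FBL at -0.18 ± 0.20 and SNU13 at 0.13 ± 0.22 and -0.023 ± 0.14. Shelterin genes with a spot (TERF2IP, TINF2, POT1 and ACD) had 3 spots higher and 3 lower, with a median of -0.0012. Their differences ran from -0.25 to 0.25, and both ends were spots of TERF2IP.

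At an unadjusted p under 0.05 limma gave 1 spot in each of 5 lists. Higher were XRCC4 (1 of 13 spots of its list), NEIL1 (1 of 17) and RAD23B (1 of 23), against 2.31% of all spots. Lower were RFC5 (1 of 19) and WRAP53 (1 of 16), against 1.1% of all spots. The other lists, of 15, 2, 4 and 6 spots, had 0. A count of 1 per list cannot be set apart from these shares. None of the 5 spots is of the 6 genes, and none passed limma's adjusted p. At each of these 5 spots the groups did not overlap. A small p already favours such a separation. The shares over all spots, 4.28% with DN-TRF2 above and 4.43% below, are therefore no background for it. Other spots of the lists were separated too, among them spots of NTHL1 above and of PARP3, FEN1, ATM and HUS1 below.

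**Figure D5:**
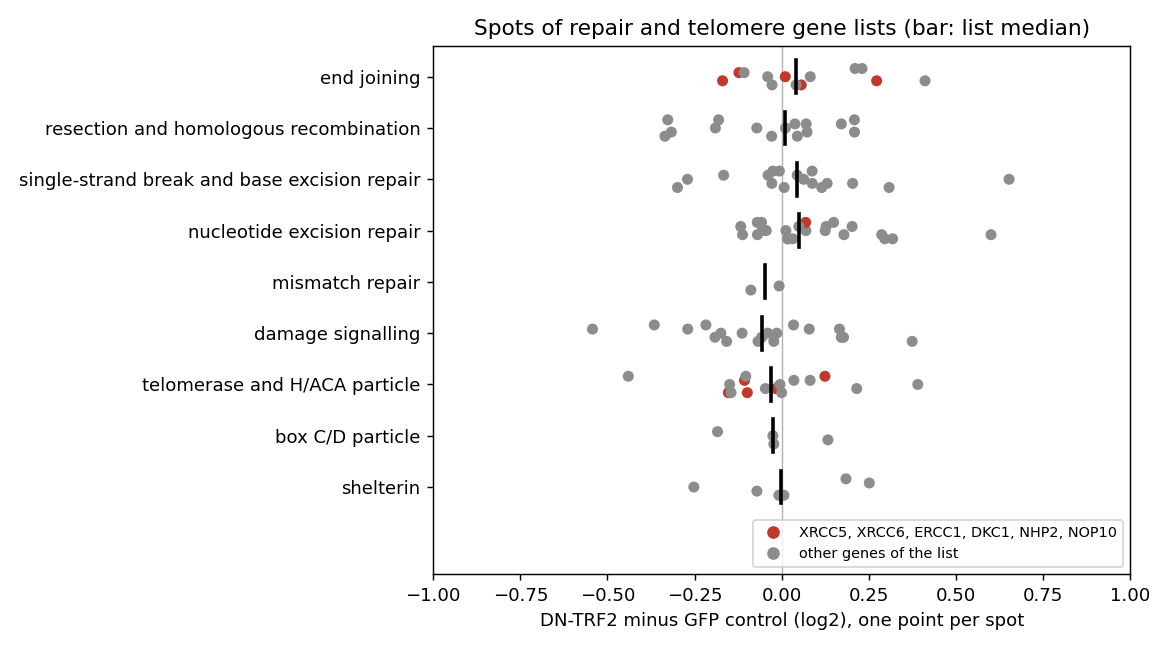
Difference between DN-TRF2 and GFP control cells at each spot of the repair and telomere lists (x axis, log2, 1 point per spot), by list (y axis, with points spread vertically for legibility). Red points are spots of XRCC5, XRCC6, ERCC1, DKC1, NHP2 and NOP10, grey points those of other genes on the list, and black bars list medians, which run from -0.058 to 0.049. The points farthest from 0 are NEIL1 at 0.65, RAD23B at 0.60 and 1 of the 3 spots of H2AX at -0.54, the other two being at -0.19 and 0.17.

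The profile of XRCC5, the spot of smallest p among the 11, was set against those of all other named spots by the root mean square distance between log2 values centred on each spot's mean over the 6 arrays. The nearest were spots of ECPAS at 0.049, LINC00626 at 0.050 and SLC35D4 at 0.051, against a median distance of 0.36 over named spots. Each had its lowest value on GFP control replicate 2, as XRCC5 did, which follows from picking them by closeness to it. ECPAS, for example, read 11.78, 11.87 and 12.10 in DN-TRF2, against 11.71, 11.13 and 11.90 in GFP control cells.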

How the data were processed

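The deposited values are the authors' intensity readings, linear, 1 per spot and array; software, background treatment and scaling behind them are not stated in the labels. The 384 blank positions, each 25th spot, and 47 further spots at the stand-in value of 10 on all 6 arrays were left out. Spots took their names from the array's annotation, updated through gene IDs to the symbols of GRCh38.p14: 8493 of 8517 annotated spots matched, and of the spots tested 8451 had 1 symbol, 21 several and 697 none listed.

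After adding 50, log2 was taken and arrays were quantile-normalized. A linear model per spot with moderated variance (limma 3.58.1 in R 4.3.3) gave two-sided tests, adjusted by Benjamini and Hochberg's method over all spots, with standard errors and 95% intervals that are also moderated. The fit was tested on simulated data. The genes, lists and alternatives were chosen with earlier results of these data known. Beside all members, the rule named the 2 genes of smallest p per list and the 3 spots most like the member spot of smallest p. Of the genes so named, 1 is not reported here.

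Both groups carry replicate numbers 1 to 3. Across spots, same-numbered arrays deviated together from their group means (correlations of 0.390, 0.296 and 0.246), and the samples were treated as paired for the fit with a replicate block. This pairing comes from the values: the labels speak of 3 independent experiments but tie no number to them. At the 11 spots, same-numbered deviations shared a sign at 6, 4 and 4 for replicates 1, 2 and 3, against 63.7%, 56.7% and 58.1% of all spots. The pairing therefore comes from all spots and not from the 11.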

Additional observations from a re-analysis of the deposited data

How the results depend on the processing

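In each alternative 0 of the spots of the 6 genes that it tested passed limma's adjusted p, and 0 had an unadjusted p under 0.05. DKC1 4093 was not among the spots left without the quartile of dimmest spots, and with spots averaged 6 genes were tested in place of 11 spots. Of 153 differences at these spots under alternatives, 134 kept their sign and 19 turned. Part of the kept signs was fixed in advance. The replicate block, a variance trend and leaving out the dimmest quartile change the errors but not the differences. With median and MAD scaling XRCC6 3271 turned to -0.041, DKC1 4093 to 0.029, NHP2 4834 to -0.0091 and ERCC1 to -0.025. With median centring XRCC6 3271 turned to -0.027 and DKC1 4093 to 0.019. With array weights NHP2 2889 turned to 0.013, DKC1 4093 to 0.035, XRCC6 4897 to -0.088 and NOP10 to 0.035. With 1 array left out the differences ran from -0.19 to 0.048 for NHP2 2889, from -0.039 to 0.18 for XRCC6 3271, from -0.061 to 0.0076 for DKC1 4093, from -0.022 to 0.23 for NHP2 4834, from -0.063 to 0.082 for XRCC6 4897 and from -0.29 to 0.17 for NOP10. The cause of these turns was not tested. Over all spots, an offset of 1 gave 1 call, a dim spot annotated BOP1 (2.73, adjusted p = 0.0340), and the other alternatives gave 0. The 313 spots at an unadjusted p under 0.05 came to 527 with the replicate block, 583 with array weights, 197 without the quartile of dimmest spots, where fewer were tested, and from 141 without DN-TRF2 replicate 2 to 792 without GFP control replicate 2. The replicate block changed no call at the 11 spots. Blank positions hold the stand-in value, so signal over background could not be measured.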
